A study of Mus musculus with 6 samples.

Results

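The genes described here are 10 that mast cells are known for or depend on: the receptor Kit and its ligand Kitl, the granule proteases Cpa3, Cma1, Mcpt4 and Tpsb2, the IgE receptor subunits Fcer1a and Ms4a2, the histamine-forming enzyme Hdc and the serotonin transporter Slc6a4. They were taken by name from 19505 named genes on the array, and each of the 10 is read by 1 probe set. Thyroid lobes came from 3 Foxe1flox/flox/Cre mice, called knockouts here, and from 3 Cre control mice, which carry Cre without the floxed gene. Animals of both groups had a C57BL/6J background, were 6 to 8 weeks old, were injected with tamoxifen (0.05 g/kg, intraperitoneal) on 5 successive days and gave 1 lobe 2 weeks later. The promoter that drives Cre and the sex of the animals were not found in the labels used here. Foxe1, a forkhead factor of the follicular cell, read 7.60, 7.19 and 7.04 in the controls, against 3.33, 2.88 and 3.04 in the knockouts, as log2 values, and fell by 4.19 (SE 0.22, limma adjusted p = 0.000442). All 3 knockout values lie under the background limit of 4.33 described below, so the size of this fall may be limited by background.

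Mast cells are tissue-resident immune cells that mature under stem cell factor, the product of Kitl, which fibroblasts, endothelium and epithelia make and which binds the receptor tyrosine kinase Kit. Their granules hold histamine and serotonin, chymases, tryptases and the carboxypeptidase Cpa3, and cross-linking of IgE on its receptor releases them. Kit is also carried by melanocytes and by some glandular epithelia, and the serotonin transporter by platelets, serotonergic neurons and some endothelium, so neither marks mast cells alone. In the thyroid, mast cells lie in the stroma between follicles.

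The bases before the start of transcription are shown for 4 members, because Kit and Slc6a4 had lower values in all knockouts and Cpa3 and Mcpt4 are the best-measured proteases with an entry. They come from RefSeq on build GRCm38.p6, 5′ to 3′ on the gene's strand, and end at the base before the first transcribed one. Capitals mark the letters GATA factors bind, searched on either strand as the word AGATAA, the word AGATAG, the word TGATAA and the word TGATAG. They also mark the word TATAAA on the gene's strand, and no matches overlap in the stretches shown. The Cpa3 stretch is chr3:20242182-20242291, minus strand, and that of Mcpt4 is chr14:56062311-56062420, minus strand. The Kit stretch is chr5:75574877-75574986, plus strand, and that of Slc6a4 is chr11:76998487-76998596, plus strand.
Cpa3: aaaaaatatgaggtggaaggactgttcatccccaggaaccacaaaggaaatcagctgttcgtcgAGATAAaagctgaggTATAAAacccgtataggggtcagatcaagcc
Mcpt4: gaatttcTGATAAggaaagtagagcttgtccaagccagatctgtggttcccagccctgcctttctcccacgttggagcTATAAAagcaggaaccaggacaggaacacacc
Kit: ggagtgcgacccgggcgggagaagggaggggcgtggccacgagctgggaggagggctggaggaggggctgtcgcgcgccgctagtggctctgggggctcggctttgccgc
Slc6a4: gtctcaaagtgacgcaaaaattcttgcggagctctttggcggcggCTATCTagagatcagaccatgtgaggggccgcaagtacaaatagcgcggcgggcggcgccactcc
Both proteases have a GATA match and a TATAAA in the stretch shown. Slc6a4 has the reverse of a GATA word, and Kit has neither motif. In the 250 bases before the start, 7 of the 9 members with an entry held a GATA match, the exceptions being Kit and Kitl, against 26.5% of 32851 promoter windows of that length. TATAAA lay in the windows of Cpa3, Mcpt4, Kitl and Fcer1a and in 7.59% of all windows. An E-box of the kind Mitf binds (CACGTG or CATGTG, on either strand) lay in the windows of Fcer1a and Slc6a4 and in 17.6% of all windows. These are matches of letters only. Tpsb2 is named only.

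The 10 genes fell into well-measured ones and ones that could not be told from background. Background was taken from 1414 probe sets of olfactory and vomeronasal receptors, which a thyroid is not known to express, and a gene was called near background when its mean over the 6 arrays was under their 95th percentile, 4.33. Kit, Kitl, Cpa3, Mcpt4 and Tpsb2 lay above both this limit and the median of all probe sets, 5.66, and are called well measured. Slc6a4 lay between these values. Cma1, Fcer1a, Ms4a2 and Hdc were near background, as were 8329 of all 22206 probe sets. Defining mast cell genes were thus measured in the lobes through 3 granule proteases, while Cma1, Hdc and both IgE receptor subunits were near background. A limit at the lower quartile of all probe sets would put 1 of the 10, Cma1, below it.

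**Figure D1:**
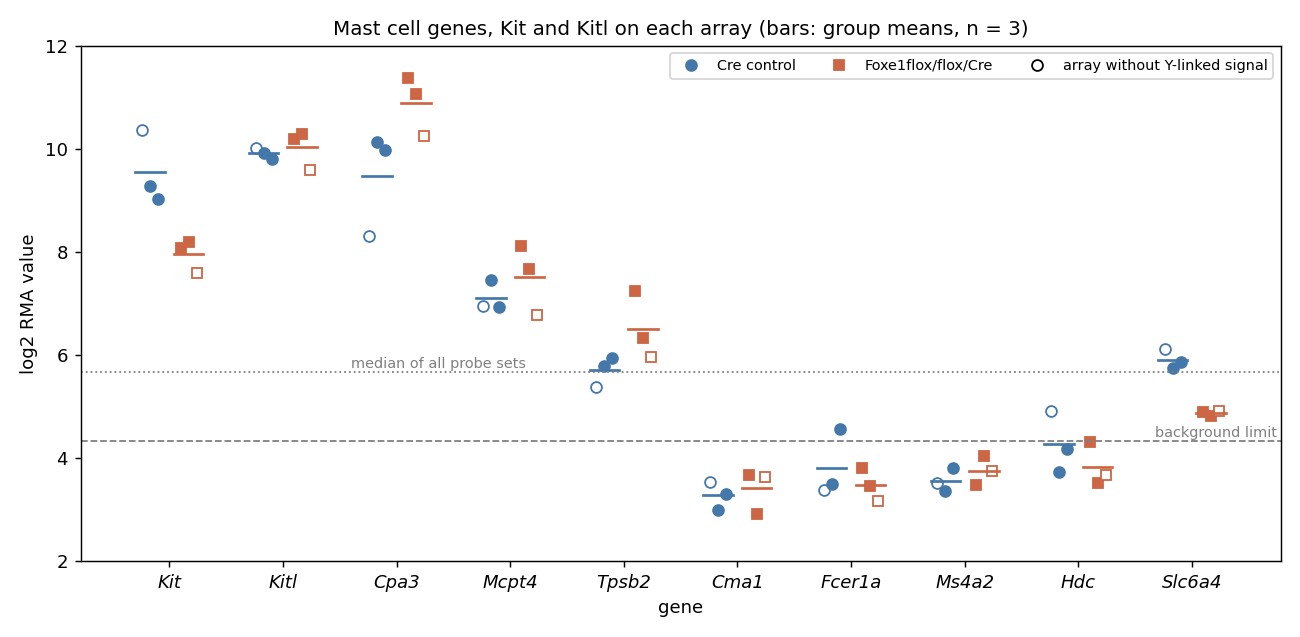
Log2 RMA value of each of the 10 genes on each array, with Cre controls as circles, Foxe1flox/flox/Cre as squares, bars at the group means (n = 3 each) and open symbols for the 2 arrays without Y-linked signal. The knockout points of Kit and Slc6a4 lie below all control points, and those of Cpa3 and Tpsb2 lie above them. Cma1 and Ms4a2 lie below the dashed background limit of 4.33, as do Fcer1a except in control 3 and Hdc except in control 1.

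None of the 10 genes passed an adjusted p of 0.05 over all 22206 probe sets (limma, two-sided), where 0.338% of probe sets passed, 0.0856% lower and 0.252% higher in the knockouts. At an unadjusted limma p under 0.05 there were 4 of the 10, Kit, Slc6a4, Cpa3 and Tpsb2, against 12.7% of all probe sets, and with an ordinary t statistic none passed after adjustment. The same 4 had knockout and control values that did not overlap, 2 lower and 2 higher in the knockouts, against 18.1% of all probe sets in either direction (8.78% lower and 9.28% higher). Each difference below is the knockout mean less the control mean, in log2 units, with limma's 95% confidence interval, and the median over all probe sets was -0.02. In whole lobes, fewer cells of a type and less RNA per cell cannot be told apart.

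Among the receptors, Kit had the largest negative difference of the 10. It read 10.36, 9.29 and 9.03 in the controls, against 8.07, 8.20 and 7.60 in the knockouts. All knockouts lay below all controls, with control 1 the highest array and knockout 3 the lowest. The means were 9.56 ± 0.70 and 7.96 ± 0.32 (SD, n = 3 each), a difference of -1.60 (SE 0.34, interval -2.39 to -0.82, limma adjusted p = 0.101), which is 3.04-fold. Only 61 of all probe sets had a more negative difference, but by its p Kit stood 283rd, and 75 probe sets passed. The difference was -1.03 when both arrays without Y-linked signal, control 1 and knockout 3, were left out, and -2.76 between those 2 arrays.

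Kitl, the ligand, had means of 9.91 and 10.03 in controls and knockouts. It read 10.01, 9.93 and 9.80 in the controls, against 10.20, 10.30 and 9.59 in the knockouts. The groups overlapped, with knockout 3 lowest of all. The difference was 0.12 (interval -0.40 to 0.63, adjusted p = 0.886 in limma), and the interval spans changes in either direction. Without knockout 2 the sign turned, at -0.02. On each array the log2 value of Kit less that of Kitl was 0.35, -0.64 and -0.77 in the controls, against -2.13, -2.10 and -1.99 in the knockouts. That ratio differed by -1.72 between groups. Its groups could not overlap, since those of Kit alone stood 0.83 apart and all Kitl values lay within 9.59 to 10.30. The two-sided exact permutation p was thereby fixed at 0.10, the smallest that 3 against 3 allows. The ratio is therefore a description and adds no test to that of Kit.

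The alpha and beta subunits of the IgE receptor, which bind the antibody and amplify its signal, were both near background. Fcer1a read 3.39, 3.50 and 4.56 in the controls, against 3.80, 3.46 and 3.16 in the knockouts. The groups overlapped, and control 3 alone stood above the background limit. Its difference was -0.34 (interval -1.09 to 0.40, limma adjusted p = 0.729) and 0.03 without control 3. Ms4a2 read 3.51, 3.37 and 3.81 against 3.48, 4.04 and 3.75, again with overlap, a difference of 0.19 (interval -0.30 to 0.69, limma adjusted p = 0.776). Near background a value follows the transcript poorly, so these intervals bound the array signal and not the transcript.

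Of the proteases, Cpa3, the mast cell carboxypeptidase, had the largest positive difference of the 10 genes. It read 8.32, 10.13 and 9.98 in the controls, against 11.37, 11.06 and 10.25 in the knockouts. All knockouts lay above all controls, by a margin of 0.12 between knockout 3 and control 2, and control 1 stood well below the other arrays. The means were 9.48 ± 1.00 and 10.89 ± 0.58 (SD, n = 3 each), a difference of 1.42 (SE 0.48, interval 0.32 to 2.51, limma adjusted p = 0.261), which is 2.67-fold. It was 0.84 without control 1.

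Tpsb2, a tryptase bound to heparin in the granule, read 5.38, 5.78 and 5.95 in the controls, against 7.24, 6.33 and 5.96 in the knockouts. The groups did not overlap, but knockout 3 and control 3 lay 0.01 apart and knockout 1 stood highest. The difference was 0.81 (SE 0.33, interval 0.06 to 1.55, limma adjusted p = 0.347), and 0.44 without knockout 1.

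The chymase Mcpt4 read 6.96, 7.45 and 6.93 in the controls, against 8.12, 7.68 and 6.77 in the knockouts. Knockout 3 was the lowest of all 6 arrays, so the groups overlapped although the other 2 knockouts lay above every control. The difference was 0.41 (interval -0.35 to 1.17, limma adjusted p = 0.675), and it was 0.11 without knockout 1 and 0.79 without knockout 3. Cma1, the other chymase and an angiotensin-converting protease, was near background, at 3.54, 2.99 and 3.31 against 3.68, 2.92 and 3.64. Its difference of 0.13 (interval -0.45 to 0.72, limma adjusted p = 0.885) was within the spread of either group. Chymase genes resemble other chymase genes, and tryptase genes other tryptase genes. How far probes are shared within each family was not tested.

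The 3 measured proteases shared parts of their order over the arrays. Over the 6 arrays, as a description, Pearson's r was 0.87 between Cpa3 and Tpsb2, 0.81 between Mcpt4 and Tpsb2 and 0.71 between Cpa3 and Mcpt4. Knockout 1 was the highest array for each of them, and knockout 3 the lowest knockout. Kit stood the other way, with r of -0.83 to Cpa3 and -0.66 to Tpsb2. Both groups enter these values, so differences between the groups are part of them. Kit less Cpa3 was 2.04, -0.84 and -0.95 in the controls, against -3.30, -2.86 and -2.65 in the knockouts. The groups of this ratio cannot overlap, since each gene separates them in the opposite direction, so it is a description (difference -3.02) with no test of its own.

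**Figure D2:**
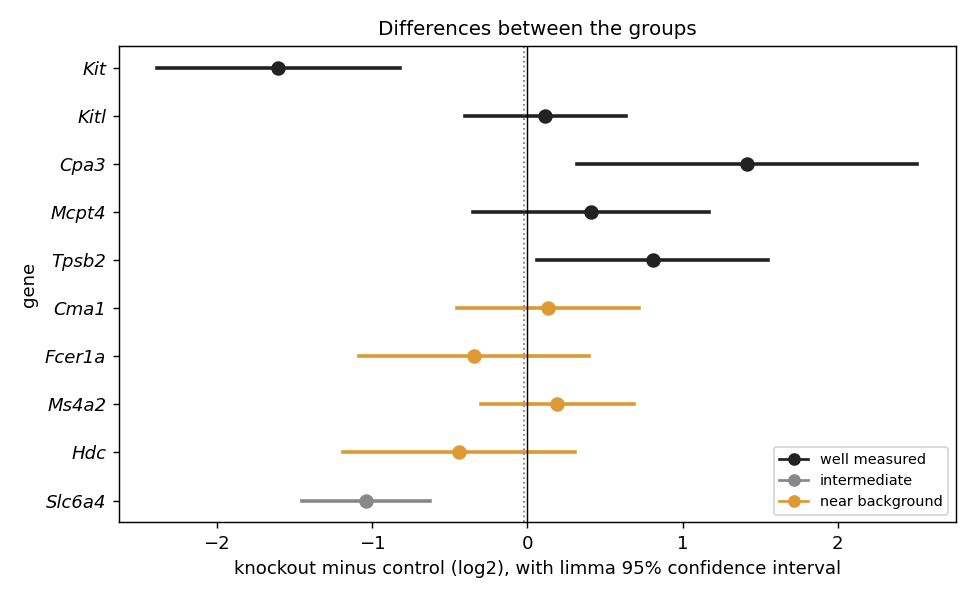
Knockout minus control on the log2 scale for each gene, with points at the difference, lines at limma's 95% confidence interval and colour for the measurement class. The intervals of Kit and Slc6a4 lie below 0 and those of Cpa3 and Tpsb2 above it before any adjustment. Those of the well-measured Kitl and Mcpt4 and of the 4 near-background genes span 0.

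Of the amine genes, Slc6a4, which takes serotonin back into cells, had the smallest p of the 10. It read 6.12, 5.75 and 5.87 in the controls, against 4.89, 4.81 and 4.92 in the knockouts. The groups stood 0.83 apart at their nearest, and the knockouts lay within 0.11 of each other. The means were 5.91 ± 0.19 and 4.87 ± 0.06 (SD, n = 3 each), a difference of -1.04 (SE 0.18, interval -1.45 to -0.63, limma adjusted p = 0.0653), or 2.06-fold, and its p ranked 111th of all probe sets. It was -0.96 without the arrays that lack Y-linked signal, and between -1.12 and -0.94 without any single array. The knockout values lay 0.48 to 0.59 above the background limit but under 4.94, the 99th percentile of the same receptor probe sets. The size of this difference may thus be limited by background. Kit less Slc6a4 was 4.24, 3.54 and 3.16 against 3.18, 3.39 and 2.68, with overlap (difference -0.56, two-sided exact permutation p = 0.30). It was -0.27 without control 1 and -0.36 without knockout 3.

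Hdc, the enzyme that makes histamine from histidine, read 4.91, 3.74 and 4.18 in the controls, against 4.32, 3.52 and 3.67 in the knockouts. Only control 1 stood clear of the background limit, and the groups overlapped. The difference was -0.44 (interval -1.19 to 0.31, limma adjusted p = 0.643), and -0.12 without control 1.

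**Figure D3:**
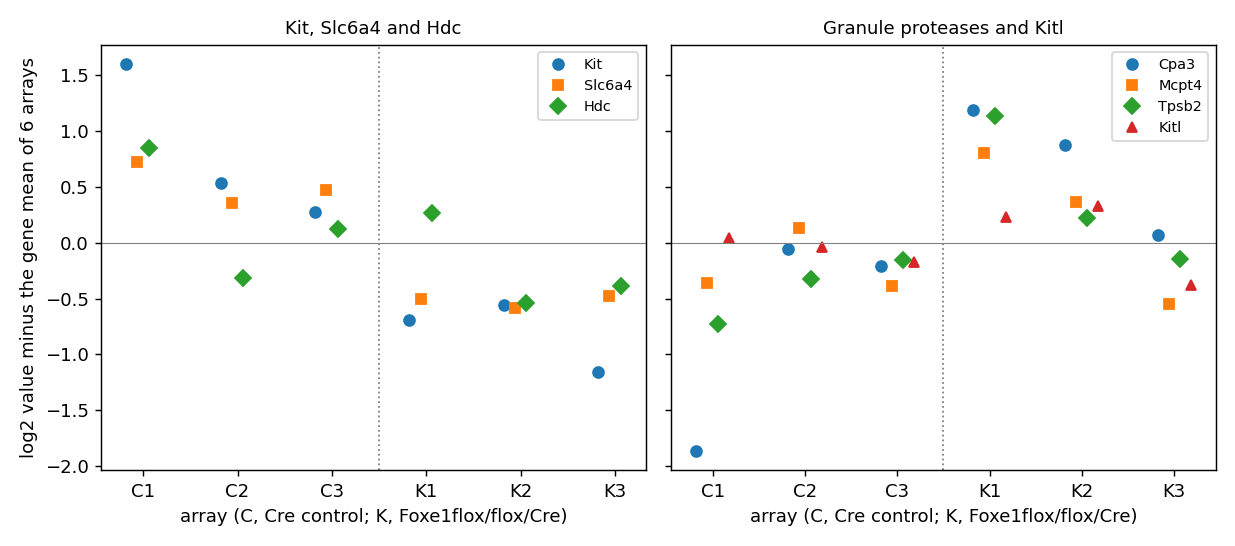
Log2 value of each gene less its own mean over the 6 arrays, for Kit, Slc6a4 and Hdc on the left and for Cpa3, Mcpt4, Tpsb2 and Kitl on the right, by array. Kit is highest in control 1 and lowest in knockout 3, Slc6a4 forms a level group in the knockouts, and Cpa3, Mcpt4 and Tpsb2 are each highest in knockout 1.

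The arrays also differed in Y-linked signal within each group. Y-linked transcripts (Eif2s3y, Kdm5d and Uty) had mean log2 values of 3.04 in control 1 and 2.65 in knockout 3, against 8.03 to 8.30 on the other 4 arrays. Cpa3 and Tpsb2 were lowest of their group on exactly these 2 arrays, while Kit was highest in control 1 and lowest in knockout 3. With 1 such array in each group, whether the 2 are linked was not tested. With the Y-linked signal as a covariate the difference of Cpa3 was 1.41 (limma adjusted p = 0.069) and that of Kit -1.60 (limma adjusted p = 0.105). Among the 4 arrays with Y-linked signal, Cpa3 differed by 1.16, Mcpt4 by 0.71 and Tpsb2 by 0.92. Between the remaining 2 arrays these genes differed by 1.93, -0.19 and 0.58. Array medians lay between 5.62 and 5.69.

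List means of markers separated the groups for some other cell types and overlapped for others. Of the follicular cell, which defines the thyroid, all 7 measured markers had positive differences. Of these 5 were higher without overlap, against 9.28% of all probe sets. List means were 8.34 to 10.05 in the controls and 11.14 to 11.56 in the knockouts, with none near background by its mean over the arrays. Slc5a5 read 8.00, 8.00 and 2.97 in the controls, against 11.50, 10.34 and 11.61 in the knockouts. Its value in control 3, the array with the lowest list mean, lay under the background limit. The homeobox gene Hhex, the only marker of other cell types to pass the threshold, rose by 2.46 (limma adjusted p = 0.0273). Without single arrays its limma adjusted p was 0.0591 to 0.107, with differences of 2.29 to 2.77. Thyroglobulin, close to the top of the scale, read 18.67 to 19.27 and differed by 0.04 with overlap. All 3 parathyroid markers were negative, with list means of 13.24 to 16.93 against 5.95 to 14.77 and none near background, and Pth read 18.24, 19.68 and 17.02 against 3.56, 18.61 and 10.06. All 6 skeletal muscle markers were negative, with list means of 16.30 to 16.49 against 15.01 to 16.10 and none near background. Of 4 C cell markers 3 were negative and 2 near background, with list means of 4.80 to 5.37 against 4.49 to 4.57. Endothelial list means were 8.75 to 9.18 against 8.03 to 9.28, fibroblast ones 12.32 to 13.47 against 11.07 to 13.08, squamous ones 16.46 to 16.64 against 16.59 to 17.16 and lymphocyte ones 3.84 to 4.06 against 3.58 to 3.81. The part of any of these in the differences of the 10 genes was not tested.

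Of the lists that bear on other carriers of Kit and Slc6a4, some separated the groups too. All 5 measured airway epithelium markers had negative differences, with list means of 16.49 to 17.20 in the controls and 15.73 to 15.86 in the knockouts and none near background. As with Kit, control 1 was the highest. Of 5 salivary and mucous gland markers 4 were negative and 2 were near background, with list means of 5.70 to 6.18 against 5.50 to 5.70. Their water channel Aqp5 read 12.36, 11.94 and 11.78 against 11.10, 10.40 and 10.67 (limma adjusted p = 0.0737). The part of such tissue in the Kit difference was not tested. Melanocyte markers, by contrast, were near background for 6 of 7, with list means of 3.32 to 3.44 and 3.35 to 3.43. Of 5 platelet markers 3 were negative and 2 near background, with list means of 4.83 to 5.20 in the controls and 4.48 to 4.83 in the knockouts. The chemokine Ppbp had the most negative difference of them, -1.07 (limma adjusted p = 0.175). Its knockout values, 4.02, 3.69 and 3.81, lay under the background limit of 4.33. The well-measured Pf4 differed by -0.29 with overlap. Gp9, near background, read 4.33, 4.22 and 4.13 against 3.78, 4.05 and 3.87, lower without overlap (-0.33). Itga2b and the near-background Gp6 differed the other way, by 0.10 and 0.05. The part of platelets in the Slc6a4 difference was not tested. All 6 macrophage markers were negative, with means of 10.14 to 10.45 against 9.53 to 9.998. Neutrophil and eosinophil markers averaged 5.59 in control 1 and 3.61 to 3.92 on the other arrays, with 7 of 9 near background, and control 1 was also the highest array for Kit, Hdc and Slc6a4.

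**Figure D4:**
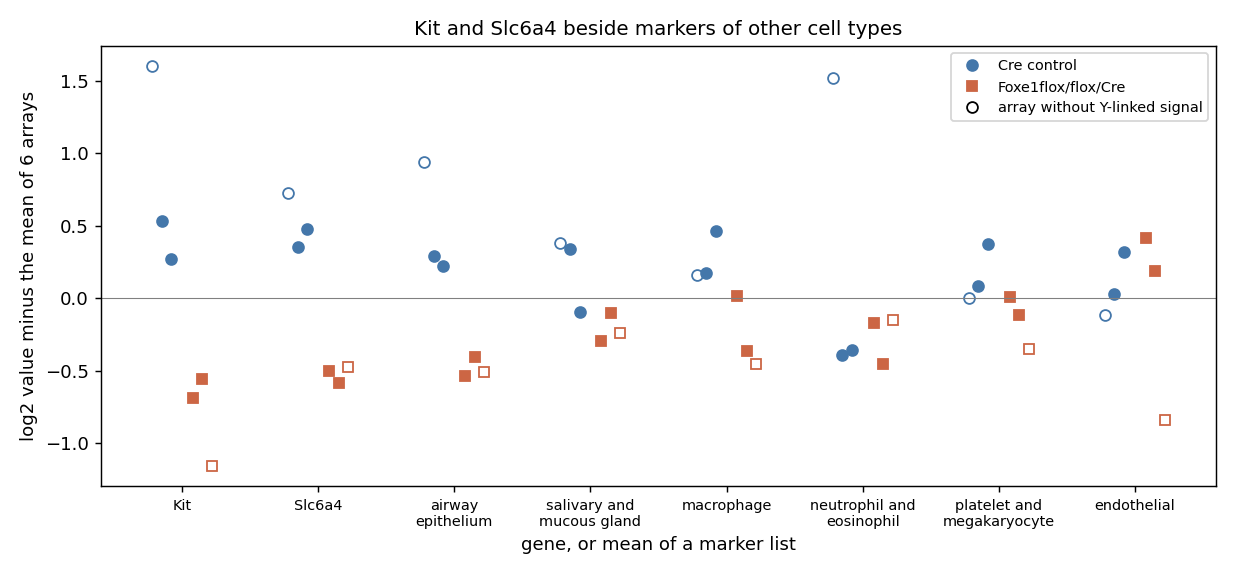
Log2 values of Kit and Slc6a4, and means of 6 marker lists, each less its mean over the 6 arrays, with Cre controls as circles, Foxe1flox/flox/Cre as squares and open symbols for arrays without Y-linked signal. Airway and macrophage markers separate the groups as Kit and Slc6a4 do. Salivary and mucous gland markers do so narrowly, with 5.704 in the lowest control and 5.698 in the highest knockout. Platelet and endothelial markers overlap, and the neutrophil and eosinophil list is set by control 1 alone.

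Other genes of mast cell biology were read from 6 lists with 81 genes, of which 77 were measured and 29 of those were near background. A single one of the 77, Enpp3, passed the threshold, in the downward direction, against 0.338% of all probe sets. Enpp3, an ectoenzyme that cleaves nucleotides and a surface marker of basophils and mast cells, is also made by epithelia. It read 10.41, 10.67 and 10.80 in the controls, against 9.09, 8.73 and 8.86 in the knockouts. The groups stood 1.32 apart at their nearest, and Enpp3 fell by 1.73 (SE 0.20, limma adjusted p = 0.025). Its adjusted p was between 0.0404 and 0.0854 without any single array, and of these 6 fits it stayed under 0.05 only in that without control 1. It was 0.0994 without the arrays that lack Y-linked signal and 0.284 with an ordinary t statistic. The difference itself was -1.84 to -1.65 without single arrays and -1.83 without the arrays that lack Y-linked signal.

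Among the 12 other granule genes 10 were near background and none passed, with a median difference of 0.00. The proteases nearest to it by p were Mcpt9 (0.52, limma adjusted p = 0.317) and Mcpt1 (-0.45, limma adjusted p = 0.558), both near background. Ndst2, which sulfates granule heparin, differed by -0.29 (limma adjusted p = 0.631). The proteoglycan core gene Srgn, well measured but shared by many blood cells, differed by -0.02.

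Of 11 measured amine genes 8 had negative differences, 5 were near background and none passed (median -0.18). Hnmt, which methylates histamine, read 9.24, 9.44 and 9.28 in the controls, against 8.98, 8.98 and 8.01 in the knockouts, without overlap (-0.66, limma adjusted p = 0.365). The diamine oxidase Aoc1, which degrades histamine outside cells, differed by -0.50 (limma adjusted p = 0.469). The histamine receptor Hrh1, near background, differed by 0.47 (limma adjusted p = 0.359).

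The 15 measured surface and lineage genes had a median difference of -0.04, with Enpp3 the single one that passed. Of the 15, 6 were near background: Mrgprb1, Mrgprb2, Cd200r3, Milr1, Gata1 and Alox5. Gata2, a transcription factor that mast cells require, differed by -0.04 and Mitf, a further one, by -0.79 (limma adjusted p = 0.328), with Mitf at 6.87, 7.37 and 6.88 against 6.58, 6.62 and 5.56. Knockout 3 was the lowest array for both. Rab27b, which acts in granule release in several secretory cells, read 10.79, 11.63 and 11.62 against 12.01, 12.13 and 12.71 (0.94, limma adjusted p = 0.218). Its groups did not overlap.

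Signalling genes downstream of both receptors were well measured in 6 of 12 cases for the IgE receptor and in 13 of 16 for Kit, and none passed. Of 12 measured IgE receptor signalling genes 5 were higher and 7 lower (median -0.03). The kinases Fyn (0.55, limma adjusted p = 0.365) and Syk (0.38, limma adjusted p = 0.479) had groups that did not overlap, and the adaptor Lat differed by -0.32 (limma adjusted p = 0.619). Of 16 Kit signalling genes 9 were higher and 7 lower (median 0.06). The adaptor Gab1 read 8.86, 9.68 and 9.80 in the controls, against 10.47, 10.21 and 10.81 in the knockouts, without overlap (1.05, limma adjusted p = 0.167). Cbl, which marks activated Kit for breakdown, differed by 0.60 (limma adjusted p = 0.329) and the kinase subunit Pik3cd by -0.55 (limma adjusted p = 0.372). These proteins act downstream of many receptors and not of Kit alone.

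Among 11 measured growth factors and attractants none passed (median 0.14). Il33, an alarmin of epithelium and endothelium that activates mast cells, read 10.15, 11.43 and 11.87 in the controls, against 12.22, 12.28 and 13.14 in the knockouts, without overlap (1.40, SE 0.44, limma adjusted p = 0.22). The chemokine Cxcl12, which draws Kit-bearing cells, read 11.24, 11.77 and 11.57 against 12.22, 12.44 and 12.08, also without overlap (0.72, limma adjusted p = 0.189). Ccl11, an attractant of eosinophils, differed by -0.77 with overlap (limma adjusted p = 0.505). The interleukins Il3, Il4 and Il9 were near background.

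**Figure D5:**
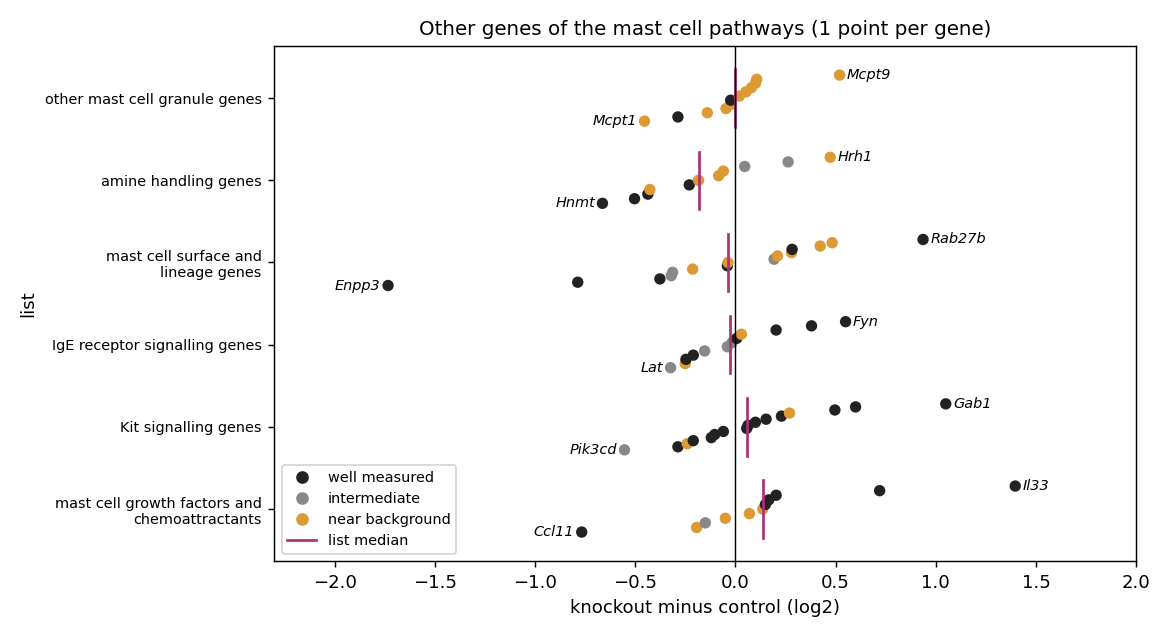
Knockout minus control on the log2 scale for each measured gene of 6 lists, 1 point per gene, coloured by measurement class, with a vertical line at the list's median and the lowest and highest gene named. Enpp3 at -1.73 lies farthest from 0, and the medians lie between -0.18 and 0.14.

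The named genes whose values followed Kit most closely over the 6 arrays, among 10149 named probe sets above the median, were Scnm1, Wfdc2, Akr1b10, Tmem176a and Ubxn10, each with Pearson's r of 0.99. Wfdc2 read 12.33, 11.58 and 11.17 in the controls, against 10.26, 10.51 and 10.09 in the knockouts. None of these 5 passed the threshold (limma adjusted p of 0.098 or more). For Slc6a4 they were Atp10a, Alox15, Selenbp1, Ubac1 and Tmem143, with r of 0.991 or more. Of these, the lipoxygenase Alox15 fell by 1.49 (limma adjusted p = 0.0289) and Selenbp1 fell by 1.69 (limma adjusted p = 0.0335). These likenesses are a description over 6 arrays, and both groups enter them.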

How the data were processed

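For 6 thyroid arrays the authors deposited a log2 value for each probe set. The submitters' processing notes name RMA and Affymetrix Expression Console. No version, setting or genome build was given in the sources used here. RMA ordinarily equalises the arrays' distributions and compresses differences near background. From 250 ng RNA per lobe, biotin-labelled cRNA was made per the labels' protocols. Probe sets were named by the platform's annotation and updated to RefSeq GRCm38.p6 (19572 of 22206 carry 1 symbol). Scanner files and detection calls were not used here.

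All 22206 probe sets were tested with limma 3.58.1 in R 4.3.3 (lmFit, eBayes), two-sided, with Benjamini-Hochberg adjustment and a threshold of 0.05. The step was tested on simulated data. Permutation tests were exact. Figures used matplotlib 3.10.9 in Python 3.11.15. The text names the 10 members, Foxe1, pathway genes past the threshold (up to 4 per list) or else the 3 with the smallest p, and the 5 genes most like Kit and Slc6a4. Srgn, Gata2, Mitf, Rab27b, Aqp5, Ppbp, Pf4, Itga2b, Gp6, Gp9, Hhex, Slc5a5, Pth, Acta1, Krt4 and the genes at background were named after their values were seen. Members, lists and tests were chosen with earlier results of these data known. P-values rest on the spread between arrays within a group. With 1 lobe and 1 array for each animal, spread between animals, dissections and arrays cannot be told apart. The limma fit also shares variance over all probe sets. Alternatives were other normalizations, variance models, filters, weights, thresholds and covariates, and leaving out arrays. The number of arrays limits the precision.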

Additional observations from a re-analysis of the deposited data

How the results depend on the processing

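None of the 10 genes passed an adjusted p of 0.05 under any setting run. With a threshold of 0.10, chosen after seeing the data, 1 passed in the main fit (Slc6a4), where Kit was at 0.101. By limma adjusted p Kit lay under 0.10 in several other fits, as with a variance trend (0.0909), array weights (0.0903) or a filter at the median (0.0783). Cpa3 did so with the Y-linked covariate (0.069). Without single arrays limma adjusted p was 0.126 to 0.288 for Kit and 0.114 to 0.178 for Slc6a4. Kit, Slc6a4, Cpa3, Mcpt4, Tpsb2, Ms4a2 and Hdc kept their direction in every setting. Without single arrays Kit ranged from -1.87 to -1.20 and Cpa3 from 0.84 to 1.74, while the sign turned for Kitl (-0.0183 to 0.337), Cma1 (-0.0117 to 0.38) and Fcer1a (-0.557 to 0.0283). Kit less Slc6a4 ranged from -0.81 to -0.27. Foxe1 (-4.19) lost its call with an ordinary t statistic (adjusted p = 0.223). The count of probe sets past the threshold, 75, was 118 with a robust variance trend, 0 with an ordinary t statistic, 6 without the arrays that lack Y-linked signal, 260 at a threshold of 0.10 and 2 to 43 without single arrays. A background limit at the lower quartile put 1 gene near background, and a limit at the 99th percentile of the receptor probe sets put 4 there. Replicate numbers are shared between groups, but same-numbered arrays did not deviate together (r of -0.01, 0.08 and 0.02). With the replicate block 63 probe sets passed, Kit was at an adjusted p of 0.078 and Slc6a4 at 0.0917, and 1 of the 3 control arrays correlated best with its own number. Filters on dim probe sets gave no value for genes under them. With 3 arrays a group, and values near background for 4 genes, small changes could not be seen.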
